A study of Mus musculus with 6 samples.

Results

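The results concern 35 genes that mark mature neurons and their subtypes: 12 genes of synaptic vesicles and transmitter release, 5 of glutamate transport and postsynaptic signalling, 4 of the neuronal cytoskeleton, 3 general neuron markers, 4 transcription factors of the excitatory lineage and 7 markers of interneurons and other subtypes. They were listed by name, with earlier results of these data known, and all 35 were found by symbol among the 53379 gene identifiers of the count files. RNA was sequenced from 6 cortical libraries of C57BL/6 mice at 2 months of age. Of these, 3 were wild type (replicates 1, 3 and 4, here WT 1, WT 3 and WT 4) and 3 carried the genotype GTF2ird1-/- (replicates 5, 6 and 7, here KO 5, KO 6 and KO 7), a loss of both copies of a transcription factor gene of the Williams syndrome region. The series title calls the material Gad2+ neurons, which are cells expressing an enzyme of GABA synthesis. The sources used here do not state how these cells were isolated, whether animals were pooled, or which bases of Gtf2ird1 are altered.

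A mature neuron releases transmitter when calcium binds synaptotagmin on a docked vesicle and SNARE proteins of the vesicle and the plasma membrane zip together. Cortical excitatory cells load vesicles with glutamate through vesicular transporters and carry CaMKII and neurogranin at the receiving synapse, whereas GABAergic interneurons are sorted into subtypes by calcium-binding proteins and neuropeptides. In cells that are still differentiating these genes are low or silent, while microtubule proteins and early transcription factors are already made.

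Gene counts per library ran from 13627501 in WT 3 to 30544144 in KO 7. Levels are given as CPM, gene counts scaled to the total of each library, and in the order WT 1, WT 3, WT 4 and then KO 5, KO 6, KO 7. A count of 0 allows a level of up to 3 counts, which equalled 0.22 CPM in WT 3 and 0.0982 CPM in KO 7, and such floors cover counting error only. WT 3 and KO 6 had the most ribosomal RNA, 17.5% and 6.2% of gene counts, against at most 1.51% elsewhere. WT 3 and WT 4 had the most reads that the counting step assigned to no feature, 57.6% and 58.2% of all reads against 40.0% to 51.2%. Where in the genome those reads fell is not known here. Markers went against a preparation of neurons alone. The 19 microglia markers summed to between 35503 and 53956 CPM per library, and none was at 0 in any library, whereas Gad2 lay between 23.8 and 134 CPM. The count of Gtf2ird1 was 23.2, 25.5 and 55.7 CPM in the wild type and 55.2, 40.6 and 51.1 CPM in the knockout libraries (edgeR adjusted p = 0.703), so it does not distinguish the labels, and "knockout" here means the libraries labelled so. In bulk libraries fewer neurons and less RNA per neuron cannot be told apart.

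All 35 genes together took 626, 282 and 679 CPM in WT 1, WT 3 and WT 4 and 911, 713 and 696 CPM in KO 5, KO 6 and KO 7. Map2 alone made up 89.0 to 456 CPM of this. Without it, the other 34 genes summed to 460, 193 and 272 CPM in the wild type libraries, against 455, 372 and 446 CPM in the knockout libraries. WT 1 was thus the highest of all 6 libraries, and WT 3 and WT 4 the lowest. The median gene was at 8.85, 1.98 and 3.02 CPM in the wild type libraries, against 8.47, 6.05 and 7.79 CPM in the knockout libraries.

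**Figure D1:**
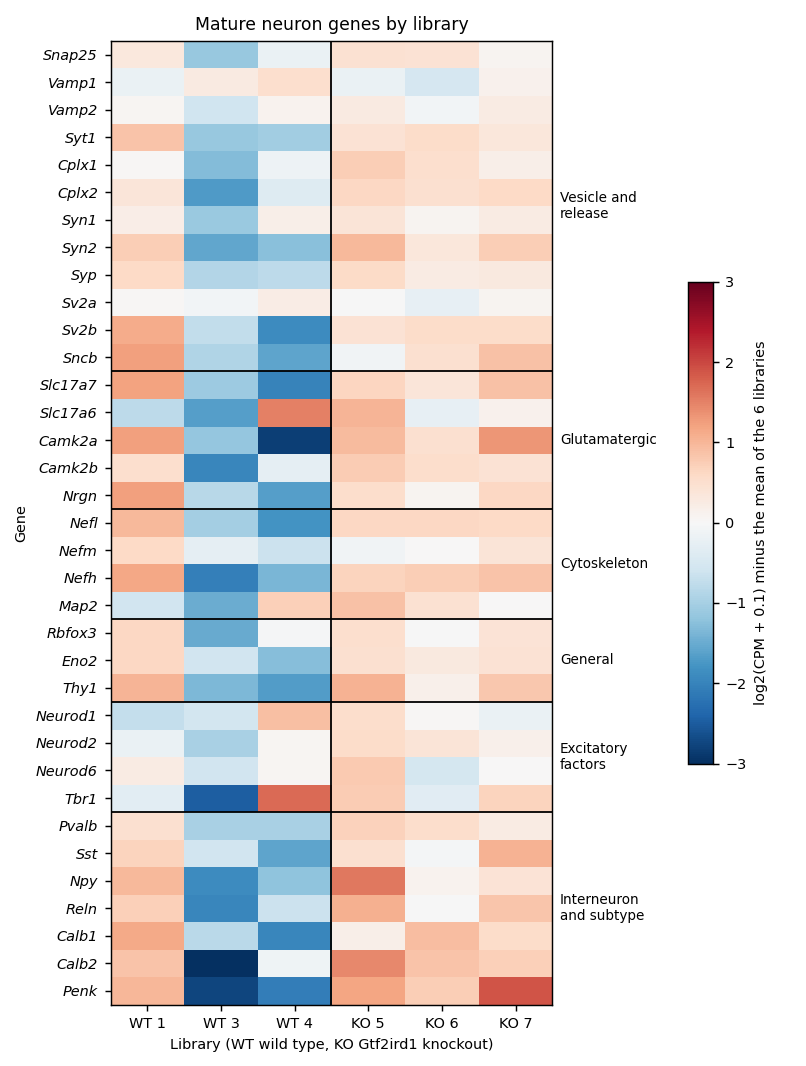
Level of the 35 genes (rows, by role) in the 6 libraries (columns), as log2(CPM + 0.1) minus the mean of the gene over the libraries. Most rows are blue in WT 3 and WT 4 and pale or red in WT 1 and the knockout libraries, while Slc17a6, Tbr1, Neurod1 and Map2 are red in WT 4.

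Detection differed between the libraries and did not go with depth alone. All 35 genes had more than 3 counts in WT 1, KO 5 and KO 7, and 34 did in KO 6. In WT 4 30 genes passed this level with 1 at 0, and in WT 3 29 passed with 4 at 0. WT 4 and KO 6 had nearly the same depth, at 16564664 and 16685959 gene counts, yet fewer genes passed in WT 4. The reason was not tested. The genes with 3 or fewer counts somewhere were Pvalb, Sst, Npy, Penk, Nefh and Calb2.

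No difference between wild type and knockout passed the test across the genome in any of these genes. Of the 33 that passed the expression filter, 0 had an edgeR adjusted p under 0.05, where 0.00581% of all 17221 tested genes did (1 gene, not a member). At an unadjusted p under 0.05 the count was also 0 of 33, against 7.25% of all tested genes. DESeq2 called 0 of the 31 members to which it gave an adjusted p (0.124% of all genes with one were called) and gave 2 of 33, Cplx1 and Cplx2, an unadjusted p under 0.05, against 9.18% of all genes. The fold changes nonetheless leaned one way: 28 of 33 were positive, with a median log2 fold change of 0.44 in knockout over wild type, where the median of all tested genes was -0.03 and 46.3% were positive. Each of the 33 intervals at 95% held a fold of 1, and 29 also held a fold of 2, so a doubling could not be told from no change for most of them.

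**Figure D2:**
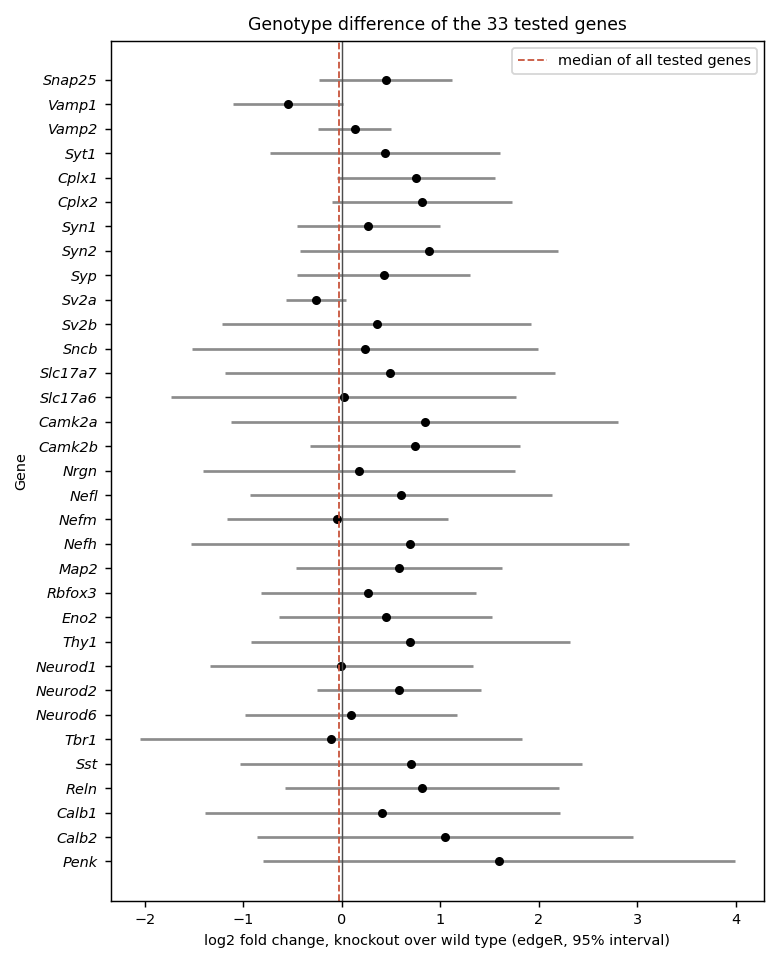
Estimated log2 fold change in knockout over wild type for the 33 tested genes (points, edgeR) with 95% intervals (bars); the dashed line is the median of all tested genes. All 33 bars cross 0, with the narrowest for Sv2a and Vamp2 and the widest for Penk.

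That lean rested on which wild type libraries were used. In 23 of the 33 tested genes WT 3 and WT 4 were the lowest libraries of the 6, against 24.9% of all tested genes. WT 1 lay within the range of the knockout libraries for 15 of the 33 (42.3% of all tested genes), above it for 12 (21.9%) and below it for 6 (35.7%). WT 3 was below all knockout libraries for 31 of the 33, but so it was for 63.2% of all tested genes. CPM over total counts places WT 3 low, and with TMM factors, which correct for this, the numbers were 29 of 33 and 35.5%. WT 4 was below all knockout libraries for 24 of the 33, against 33.6% of all tested genes, and TMM factors gave 24 and 34.8%. Without WT 1 the median log2 fold change became 1.09, and 3 of 31 tested members, Syn2, Syt1 and Penk, were called higher in knockout (1.77% of all genes were). For Penk that fit held only 0 and 1 wild type counts, so its size there depends on the small count that edgeR adds. At an unadjusted p under 0.05, 19 of the 31 were higher in that fit, against 10.8% of all genes. In the other direction 1 member, Vamp1, was lower (log2 fold change -0.75). In either direction these were 20 members, against 18.6% of all genes. Without WT 3 or without WT 4 the median was 0.23 in both cases. With WT 1 as the only wild type library, a choice made after seeing the data in which WT 1 is assumed to vary like the knockout libraries, the median turned to -0.18 and 25 of 34 tested members were negative.

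**Figure D3:**
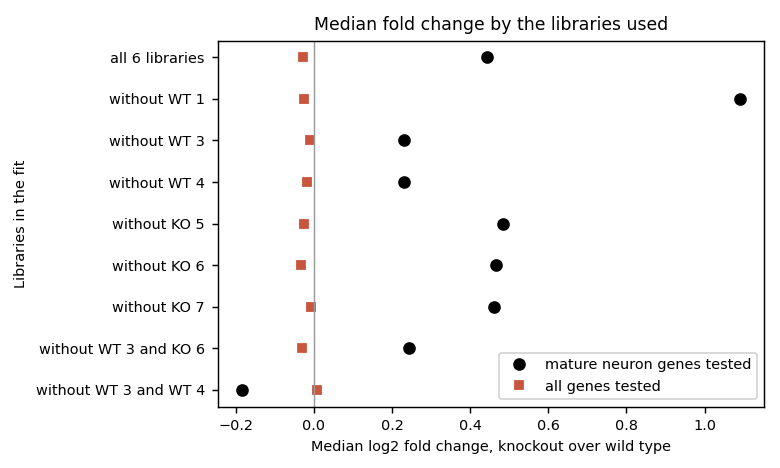
Median log2 fold change of the tested members (circles) and of all tested genes (squares) for each set of libraries in the fit. The member median runs from -0.18 without WT 3 and WT 4 to 1.09 without WT 1, while the median of all genes stays near 0.

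Other cell types differed between the same libraries. The 15 astrocyte markers summed to 3812, 541 and 355 CPM in the wild type libraries, against 7623, 3776 and 4473 CPM in the knockout libraries, and the 14 oligodendrocyte markers to 2504, 460 and 190 CPM against 2827, 2095 and 2731 CPM. No marker of these lists was at 0 in any library. WT 3 and WT 4 were thus the lowest libraries for astrocyte, oligodendrocyte and most mature neuron genes alike. The immature neuron list of 12 genes had another order, with 874, 789 and 2369 CPM in the wild type libraries, against 2630, 1806 and 1312 CPM in the knockout libraries. Positive fold changes were not particular to neuron genes. They were found in 15 of 15 tested astrocyte and 14 of 14 oligodendrocyte markers, with medians of 1.77 and 1.35. For oligodendrocyte precursors it was 10 of 10 (median 1.36), and for endothelial and mural cells 10 of 11 (0.77). These medians exceeded the 0.44 of the members. Of the microglia markers 0 of 19 were positive (median -0.24). The part of other cell types in the values of the mature neuron genes was not tested.

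**Figure D4:**
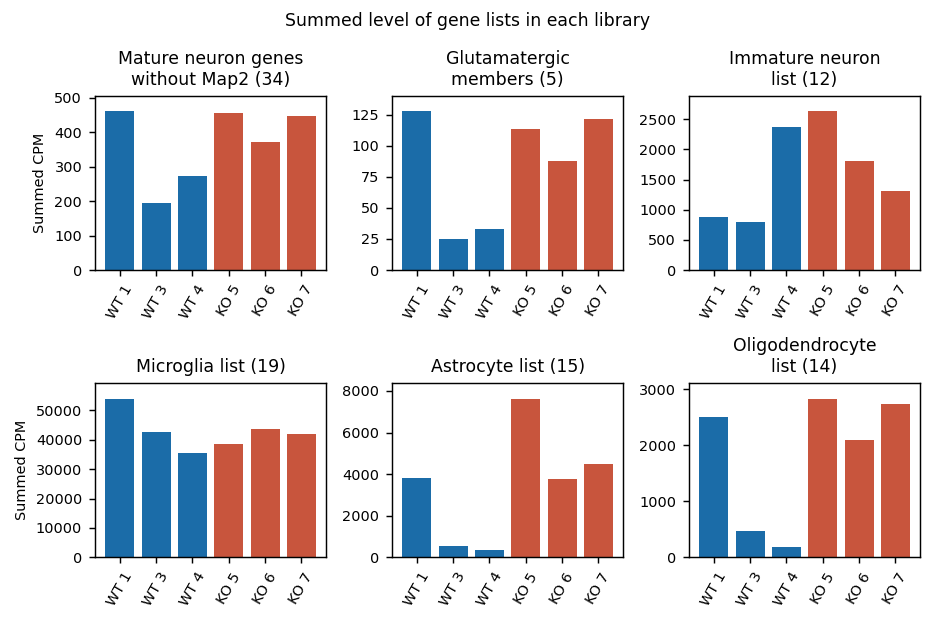
Summed CPM per library of the members without Map2, of the 5 glutamatergic members and of 4 marker lists (bars, blue wild type, red knockout). WT 3 and WT 4 are low in the mature neuron, glutamatergic, astrocyte and oligodendrocyte panels. In the immature neuron panel KO 5 is highest and WT 4 next, and microglia markers vary least.

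Among the 12 vesicle and release genes 10 fold changes were positive and 2 negative, and the median was 0.39. The complexins, small proteins that clamp and then assist SNARE fusion, had groups that did not overlap. Cplx2 (ENSMUSG00000025867.8, GRCm38 chromosome 13, 54371349 to 54383917) was at 27.5, 6.46 and 16.2 CPM in the wild type libraries, against 32.9, 30.0 and 32.5 CPM in the knockout libraries. The wild type mean was 16.7 ± 10.5 CPM and the knockout mean 31.8 ± 1.60 CPM (SD, n = 3). The difference did not pass the threshold (log2 fold change 0.81 ± 0.39, SE; edgeR adjusted p = 0.637). The wild type libraries spread widely, and WT 1 lay just under the knockout libraries. Cplx1 (ENSMUSG00000033615.9, chromosome 5, 108518554 to 108550024), at between 0.390 and 0.691 of the level of Cplx2 per kb of exon, had 5.15, 1.98 and 4.47 CPM against 8.47, 7.19 and 5.63 CPM (log2 fold change 0.75 ± 0.34, SE; edgeR adjusted p = 0.637). Together with the transcription factor gene Neurod2, these were the 3 members whose groups did not overlap with knockout higher, or 3 of 33 tested, where 7.97% of all tested genes were so separated. In the other direction there was no member, against 2.69% of all tested genes. These separations are on CPM over total counts, which places WT 3 low. With TMM factors the groups of Sv2a did not overlap either, with knockout lower. The shares on that scale were not counted, so it is not known how common such a separation was among all tested genes.

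Vamp1 and Sv2a stood apart from the other vesicle genes in that, on CPM over total counts, WT 4 was the highest and KO 6 the lowest library. With TMM factors WT 3 was the highest library for both. Vamp1 (ENSMUSG00000030337.16, chromosome 6, 125215551 to 125245964) encodes a vesicle SNARE. Its level was 32.9, 45.3 and 53.2 CPM in the wild type libraries, against 32.5, 26.4 and 41.0 CPM in the knockout libraries, so the groups overlapped (log2 fold change -0.55 ± 0.24, SE; edgeR adjusted p = 0.637). Its unadjusted p of 0.0522 was the smallest among the members. Sv2a (ENSMUSG00000038486.9, chromosome 3, 96181151 to 96195521), a glycoprotein of all synaptic vesicles, was at 45.0, 41.7 and 51.2 CPM against 44.0, 37.3 and 46.3 CPM. It varied least of all members, by 1.37 times from lowest to highest library, and had (log2 fold change -0.26 ± 0.13, SE; edgeR adjusted p = 0.637). Vamp2, the major vesicle SNARE of the forebrain, came next at 30.6, 19.4 and 31.7 CPM against 35.2, 27.7 and 35 CPM, a range of 1.82 times.

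The plasma membrane SNARE gene Snap25 was at 30.7, 11.2 and 21.6 CPM in the wild type libraries, against 34, 33.3 and 26.2 CPM in the knockout libraries. Syt1, the calcium sensor of fast release, had 33, 8.15 and 8.69 CPM against 24.3, 26.4 and 23.0 CPM. WT 1 held the highest level of Syt1 and WT 3 and WT 4 the lowest, while the knockout libraries were close together. The vesicle membrane protein synaptophysin (Syp) gave 24.3, 8.66 and 9.24 CPM against 24.0, 19 and 19.7 CPM. In the annotation 16.8% of the exon bases of Syp are also covered by Gm14703 on the opposite strand, and the strand setting of the counting is not given, so its count is uncertain to that extent. Log2 fold changes were 0.44 ± 0.29 for Snap25, 0.44 ± 0.50 for Syt1 and 0.43 ± 0.38 for Syp (SE; edgeR adjusted p = 0.672, 0.789 and 0.732).

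The synapsin and SV2 pairs had their highest ratios in WT 4, whereas Vamp1 to Vamp2 (0.876) and Cplx1 to Cplx2 (0.691), per kb, were highest in WT 3. Synapsins tether vesicles in the reserve pool. Syn2 was at 16.6, 3.30 and 4.11 CPM in the wild type libraries, against 19.5, 12.6 and 16.6 CPM in the knockout libraries, whereas Syn1 was at 8.16, 3.23 and 8.03 CPM against 9.30, 7.55 and 8.48 CPM. For Syn2 both WT 3 and WT 4 were low, and for Syn1 only WT 3 was. Per kb of exon the ratio of Syn1 to Syn2 was 4.17 in WT 4 and between 1.01 and 2.08 in the other 5 libraries. With the longest transcript as length, which scales all libraries alike, the ratio was 2.31 in WT 4, 1.16 in WT 3 and between 0.562 and 0.709 in WT 1 and the knockout libraries. Sv2b, a relative of Sv2a with a narrower distribution in brain, was at 11.8, 3.23 and 1.39 CPM against 7.38, 7.97 and 7.99 CPM. The level of Sv2a per kb was 66.7 times that of Sv2b in WT 4, 23.3 times in WT 3 and between 6.90 and 10.8 times in the other 4. Sncb, which encodes beta-synuclein of the presynaptic terminal, had 3.56, 0.734 and 0.423 CPM against 1.35, 2.10 and 2.78 CPM. Its order, like that of Sv2b, put WT 1 highest and WT 4 lowest.

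The promoters of Syn1 and Sst are shown because they alone among the members with a sequence at hand held the cyclic AMP response element, the letters TGACGTCA to which CREB family factors bind. RefSeq windows (GRCm38.p6) of the 250 bases before a transcription start existed for 25 of the 35 genes, 32 windows in all. The element, which reads the same on both strands, was in 2 of these 32 windows and in 1.55% of all 32851 windows. The left part of the REST binding site RE1, the letters TTCAGCACC searched on both strands, was in 1 of 32 windows, that of Syn1, and in 0.301% of all. REST represses neuronal genes in other cells. Capitals mark these letters, and the 2 motifs do not overlap.
Syn1, chrX:20920919-20921168, minus strand: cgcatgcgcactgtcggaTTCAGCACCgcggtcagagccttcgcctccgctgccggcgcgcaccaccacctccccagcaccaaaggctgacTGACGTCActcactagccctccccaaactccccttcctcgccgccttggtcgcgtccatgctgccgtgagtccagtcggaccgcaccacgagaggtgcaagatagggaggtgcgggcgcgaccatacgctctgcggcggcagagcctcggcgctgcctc
Sst, chr16:23890845-23891094, minus strand: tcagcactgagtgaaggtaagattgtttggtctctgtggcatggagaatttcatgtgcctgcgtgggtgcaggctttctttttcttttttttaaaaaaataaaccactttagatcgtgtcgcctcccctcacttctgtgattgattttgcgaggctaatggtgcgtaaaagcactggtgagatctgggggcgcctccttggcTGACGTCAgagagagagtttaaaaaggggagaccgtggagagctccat
The element begins 48 bases before the start of Sst and 159 before that of Syn1, and the RE1 letters lie 232 to 224 bases before the start of Syn1. The GENCODE models of both genes begin further upstream, inside these windows, at base 23890958 for Sst and base 20921004 for Syn1. By these models the element of Sst lies inside the gene, whereas both motifs of Syn1 still lie before its start. These are matches of letters, not measured binding. The levels of these 2 genes in WT 4 differed in place: Syn1 stood there at its WT 1 level, and Sst at its lowest.

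All 5 glutamatergic genes had positive fold changes, with a median of 0.49, and none passed. Slc17a7 (VGLUT1, ENSMUSG00000070570.5, chromosome 7, 45163949 to 45176142) loads glutamate into vesicles of most cortical excitatory neurons. It was at 25.9, 5.14 and 2.72 CPM in the wild type libraries, against 17.4, 14.3 and 20.5 CPM in the knockout libraries (log2 fold change 0.49 ± 0.72, SE; edgeR adjusted p = 0.841). Camk2a, the kinase subunit of forebrain excitatory synapses, was at 57.3, 10.8 and 3.32 CPM against 46.9, 34 and 60.4 CPM, an 18.2-fold range over the libraries (log2 fold change 0.84 ± 0.84, SE; edgeR adjusted p = 0.758). Neurogranin (Nrgn), a calmodulin-binding protein of the same cells, had 12.3, 2.86 and 1.57 CPM against 7.43, 5.51 and 8.05 CPM. Without WT 1 the log2 fold changes of Slc17a7 and Camk2a were 1.92 and 2.47, and without WT 4 they were 0.0060 and 0.31, none called by edgeR. In these 3 genes WT 1 lay within or above the knockout range and WT 4 was the lowest library.

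Slc17a6 (VGLUT2, ENSMUSG00000030500.6, chromosome 7, 51622006 to 51671119), the transporter typical of subcortical and of developing glutamatergic neurons, differed in that WT 1 lay below the knockout range and WT 4 above it. It was at 1.42, 0.734 and 7.30 CPM in the wild type libraries, against 5.17, 2.10 and 2.75 CPM in the knockout libraries, with WT 4 the highest (log2 fold change 0.02 ± 0.75, SE; edgeR adjusted p = 0.995). Per kb of exon the ratio of Slc17a6 to Slc17a7 was 0.0547, 0.143 and 2.69 in wild type and 0.296, 0.146 and 0.134 in knockout. WT 4 was thus the only library in which VGLUT2 exceeded VGLUT1. Camk2b, a CaMKII subunit made earlier in development than Camk2a, was at 30.9, 5.58 and 18.1 CPM against 36.8, 31.5 and 29.6 CPM (log2 fold change 0.74 ± 0.46, SE; edgeR adjusted p = 0.661). The ratio of Camk2b to Camk2a per kb was 4.45 in WT 4 and between 0.400 and 0.758 in the other libraries.

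**Figure D5:**
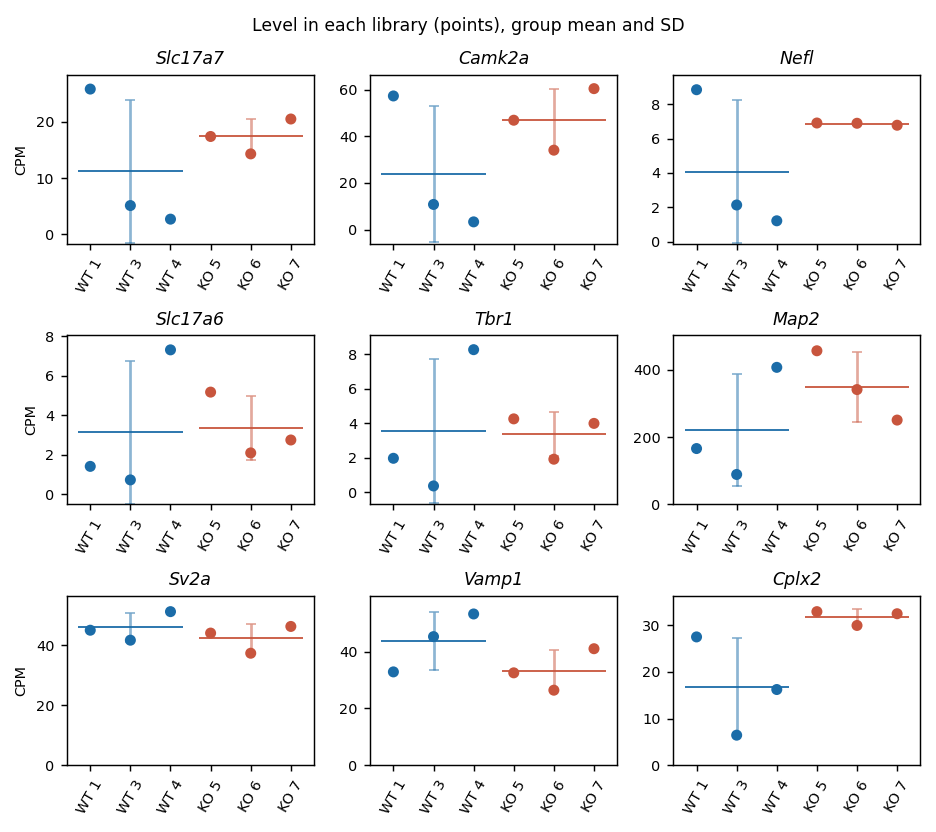
CPM of 9 members in each library (points, blue wild type, red knockout), with the mean of each group (line) and its SD (bar, n = 3). Slc17a7, Camk2a and Nefl are low in WT 3 and WT 4, Slc17a6 and Tbr1 are highest in WT 4, Map2 is low in WT 1 and WT 3, and Sv2a is nearly level.

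Among the cytoskeletal genes, Map2 differed from the neurofilament genes Nefl, Nefm and Nefh, for which WT 4 lay below all knockout libraries. Map2 (ENSMUSG00000015222.17, chromosome 1, 66175273 to 66442583), which binds dendritic microtubules from early differentiation on, had 166, 89.0 and 407 CPM in the wild type libraries, against 456, 341 and 250 CPM in the knockout libraries (log2 fold change 0.58 ± 0.45, SE; edgeR adjusted p = 0.703). It was the most abundant member per kb, at a mean of 17.3 CPM per kb over the 6 libraries, followed by Sv2a at 9.55 and Vamp2 at 7.86. With the longest transcript as length Map2 was still first, at 45.5, but Vamp2 at 13.6 came before Sv2a at 10.2. WT 4 lay among the knockout libraries for Map2, and WT 1 and WT 3 lay below. Neurofilaments fill mature axons. Nefl was at 8.85, 2.13 and 1.21 CPM against 6.91, 6.89 and 6.78 CPM (log2 fold change 0.60 ± 0.65, SE; edgeR adjusted p = 0.779). The 3 knockout values of Nefl differed by little, and WT 1 stood above and WT 3 and WT 4 below them. Nefm lay between 0.543 and 1.42 CPM, and Nefh had 24, 0 and 1 counts in wild type and 13, 10 and 20 in knockout. Nefl and Nefm share 1108 exon bases on opposite strands of chromosome 14, which is 32.8% of the exon bases of Nefl and 19.2% of those of Nefm, so reads there could have been lost or assigned to the other gene.

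Of the general markers, Eno2, the neuronal enolase of glycolysis, was at 11.1, 4.77 and 2.90 CPM in the wild type libraries, against 10.1, 8.81 and 9.76 CPM in the knockout libraries. Thy1, a surface glycoprotein of projection neurons, had 9.12, 1.69 and 1.33 CPM against 9.25, 4.91 and 7.79 CPM. Rbfox3, which encodes the nuclear antigen NeuN, had 5.84, 1.25 and 3.68 CPM against 5.39, 3.72 and 5.01 CPM. All 3 had WT 3 and WT 4 as their lowest libraries, and their log2 fold changes were 0.45 ± 0.46, 0.69 ± 0.69 and 0.27 ± 0.47 (SE; edgeR adjusted p = 0.766, 0.758 and 0.865). Rbfox3 averaged 0.713 CPM per kb over the libraries.

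The 4 excitatory lineage factors reached at most 8.27 CPM, 2 fold changes were positive and 2 negative, and their median was 0.04. Tbr1, a T-box factor of early-born and deep-layer cortical neurons, was at 1.97, 0.367 and 8.27 CPM in the wild type libraries, against 4.26, 1.92 and 3.99 CPM in the knockout libraries. Its range of 22.5 times lay wholly within wild type, between WT 3 and WT 4 (log2 fold change -0.11 ± 0.83, SE; edgeR adjusted p = 0.972). Neurod1, a basic helix-loop-helix factor of differentiating neurons, had 11, 6 and 23 counts and 24, 12 and 18 counts, or 0.380, 0.440 and 1.39 CPM against 1.04, 0.719 and 0.589 CPM. WT 4 was highest for both, as it was for Slc17a6. Neurod1 shares 13% of its exon bases with Cerkl and Gm26755. Neurod2, which is kept in mature excitatory neurons, had 1.45, 0.807 and 1.75 CPM against 2.48, 2.22 and 1.87 CPM, so WT 4 lay just below KO 7 (log2 fold change 0.58 ± 0.36, SE; edgeR adjusted p = 0.660). Neurod6, a relative kept in mature pyramidal neurons, had 1.11, 0.587 and 0.966 CPM against 1.65, 0.599 and 0.917 CPM, and the groups overlapped.

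Interneuron and subtype genes were the least detected group. Parvalbumin (Pvalb), the calcium buffer of fast-spiking interneurons, had 5, 0 and 0 counts in wild type and 5, 3 and 4 counts in knockout. Somatostatin (Sst), the peptide of dendrite-targeting interneurons, had 19, 3 and 1 counts and 13, 6 and 27 counts. Neuropeptide Y (Npy), a peptide of several interneuron types, had 18, 0 and 1 counts and 23, 5 and 12 counts. A count of 0 in WT 3 allows up to 0.22 CPM, above the 0.131 to 0.217 CPM at which Pvalb stood in the knockout libraries, so no difference of Pvalb from WT 3 was detectable at this depth. Pvalb and Npy did not pass the expression filter and were not tested. The estimate for Sst had a wide error (log2 fold change 0.70 ± 0.74, SE; edgeR adjusted p = 0.772).

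Among the 5 tested genes of this group all fold changes were positive, with a median of 0.81. Penk, the precursor of the enkephalin opioid peptides, had 36, 0 and 1 counts in wild type and 33, 17 and 73 counts in knockout, or 1.24, 0 and 0.0604 CPM against 1.43, 1.02 and 2.39 CPM. Its estimate was the largest of the members (log2 fold change 1.59 ± 1.02, SE; edgeR adjusted p = 0.669), and it rests on WT 3 and WT 4, since WT 1 lay within the knockout range. A processed transcript on the opposite strand covers 14.3% of its exon bases. Calb2 (calretinin, ENSMUSG00000003657.9, chromosome 8, 110137502 to 110168210), a calcium-binding protein of bipolar interneurons and of immature granule-type neurons, had 6.05, 0.147 and 3.02 CPM against 9.17, 6.05 and 5.50 CPM (log2 fold change 1.05 ± 0.81, SE; edgeR adjusted p = 0.704). WT 3 held 2 counts of it, under the floor, while WT 4 held 50. Calbindin (Calb1), a calcium-binding protein of another set of interneurons and of superficial pyramidal cells, had 2.80, 0.660 and 0.241 CPM against 1.39, 2.40 and 1.83 CPM, so WT 4 was lowest there. Per kb, Calb2 exceeded Calb1 34.8 times in WT 4, and Calb1 exceeded Calb2 in WT 3 alone. Both ratios are imprecise, since Calb1 had only 4 counts in WT 4, and WT 3 held 9 counts of Calb1 and 2 of Calb2. Reelin (Reln), the glycoprotein secreted by Cajal-Retzius cells and some interneurons, had 9.06, 1.32 and 3.44 CPM against 11.6, 5.39 and 9.76 CPM (log2 fold change 0.81 ± 0.59, SE; edgeR adjusted p = 0.690).

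Within the group of 35 the libraries therefore separated in more than 1 way. Of the 33 tested genes WT 3 was the lowest library for 19, against 48.5% of all tested genes, and the highest for 0, against 5.66%. With TMM factors WT 3 was the lowest for 15 (20.6% of all tested genes) and the highest for 2 (23.5%). WT 4 was the lowest for 11 genes (Sv2b, Sncb, Slc17a7, Camk2a, Nrgn, Nefl, Nefm, Eno2, Thy1, Sst and Calb1), where 15.7% of all tested genes had it lowest. It was the highest for 5 (Vamp1, Sv2a, Slc17a6, Neurod1 and Tbr1), a smaller share than the 31.3% of all tested genes. With TMM factors WT 4 was the lowest for 14 (25.8% of all tested genes). On that scale it was the highest for 3 (23.7%), with Vamp1 and Sv2a no longer among them. Of the 12 immature neuron markers 5 were highest in WT 4, 6 in KO 5 (Sox4, Cd24a, Igfbpl1, Nrep, Stmn1 and Tubb2b) and 1 in KO 7. Among the 5, doublecortin (Dcx), a microtubule protein of migrating neurons, was at 74.1, 72.2 and 510 CPM in the wild type libraries, against 278, 215 and 180 CPM in the knockout libraries. Eomes, a factor of intermediate progenitors of the excitatory lineage, was at 0.173, 0.807 and 7.55 CPM against 6.30, 3.06 and 2.78 CPM. The sum over the list was highest in KO 5 and next in WT 4. This is a description of 6 libraries, with no test.

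Other neuron genes, taken as lists with earlier results of these data known, gave similar counts. Of 32 further vesicle and release genes 30 were tested, 25 positive and 5 negative, with a median of 0.49 and 0 called. The smallest p-values were those of Syngr1, a vesicle tetraspan protein (log2 fold change -0.35 ± 0.13), and Unc13c, a priming factor (1.68 ± 0.65; SE, edgeR adjusted p = 0.637 for both). On CPM over total counts Syngr1, like Vamp1 and Sv2a, was highest in WT 4 and lowest in KO 6. It was at 148, 130 and 157 CPM in the wild type libraries, against 126, 114 and 138 CPM in the knockout libraries. With TMM factors WT 3 was the highest for Syngr1 too. All 19 further cytoskeletal and axonal genes were positive, with a median of 0.59 and 0 called. The most abundant per kb was Tubb3, the neuronal beta-tubulin, at 72.3, 57.5 and 217 CPM against 346, 202 and 132 CPM, the order seen for Map2.

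Of 22 further glutamatergic genes 21 were tested, 17 positive and 4 negative, with a median of 0.39 and 0 called. Rorb, a nuclear receptor of layer 4 neurons, had the smallest p, at 22.1, 4.55 and 9.30 CPM in the wild type libraries, against 44.8, 23.7 and 30.4 CPM in the knockout libraries (log2 fold change 1.32 ± 0.48, SE; edgeR adjusted p = 0.637). Of 23 further GABAergic and interneuron genes 18 were tested, 17 positive and 1 negative, with a median of 0.49 and 0 called. Dlx1, a homeodomain factor of developing interneurons, was the most abundant of this list per kb, at 46.9, 43.7 and 187 CPM against 203, 126 and 99.8 CPM. WT 4 and KO 5 were its highest libraries, as they were for Map2 and Tubb3.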

How the data were processed

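RNA of 6 cortical libraries was sequenced after a stranded library preparation from total RNA, per the labels' protocols. The deposited files hold raw read counts per gene. The submitters' processing notes name Trim Galore 0.60, STAR 2.7, HTSeq 1.31 and mm10, while the annotation and strand setting are absent from the sources used here. Lines that name no gene were left out of totals and tests. Of 53379 identifiers 53274 matched GENCODE M21 (GRCm38).

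Levels per kb divide CPM by the union of exons. Genotypes were compared over the 17221 genes passing edgeR's default filter (edgeR 4.0.16, R 4.3.3), with TMM factors, robust quasi-likelihood F-tests, two-sided, and Benjamini-Hochberg adjustment at 0.05. The script was tested on simulated data. Alternatives used DESeq2 1.42.0, limma-voom (limma 3.58.1), other scalings and filters, and fits without single libraries. Libraries of a group differed by a chi-square of at least 49.8 per degree of freedom, so each counted as 1 sample. Nothing says that libraries came from separate animals, so p-values measure the spread between these libraries, which may be technical. The members and lists were chosen with earlier results of these data known. Members were described by role, all 35 with values or ranges. Of the other lists, up to 3 genes with the smallest p and up to 2 with the highest level per kb were eligible to be named. Dcx and Eomes, and the order of libraries with TMM factors, were chosen after values were seen. 1 gene of these lists is not reported here.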

Additional observations from a re-analysis of the deposited data

How the results depend on the processing

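The number of members called was 0 in every fit with other scalings, filters or tools, and ranged from 0 to 3 when single libraries were left out; the 3 came without WT 1, where WT 3 and WT 4 remain as wild type. At an unadjusted p under 0.05, limma-voom gave 1 member (Penk, 8.52% of all genes) and upper-quartile factors gave 1 (Vamp1, 7.35%). The fit with no filter gave 1 (Vamp1, 5.85%), as did the fit without KO 7 (Vamp1, 7.34%). The fit without WT 4 gave 2 (Map2 and Slc17a6, 17.2%). The fit without WT 1 gave 20 (18.6%), of which 19 were higher and 1 was lower in knockout. The member median log2 fold change kept its sign in all fits but 1: with WT 3 and WT 4 left out, chosen after seeing the data, it was -0.18, and with WT 3 and KO 6 left out, chosen likewise, 0.24. Scaling by total counts alone moved the median of all genes to 0.11 and that of the members to 0.56. Of 259 single-gene estimates under other scalings, filters or tools 249 kept their direction. Those that turned were Slc17a6 with upper-quartile factors (-6.6e-05), Nefm with total counts (0.10) and limma-voom (0.0070), Tbr1 with limma-voom (0.54), and Neurod1 with DESeq2 size factors (0.0042), total counts (0.11), the DESeq2 test (0.0014), limma-voom (0.17), no filter (0.0088) and ribosomal RNA removed (0.011). The causes were not tested. Without single libraries 20 of 194 estimates turned, in 10 genes. Their log2 fold changes ranged from -0.13 to 1.52 for Sv2b, from -0.25 to 1.66 for Sncb, from -0.39 to 1.38 for Slc17a6, from -0.29 to 1.43 for Nrgn, from -0.35 to 0.44 for Nefm, from -0.071 to 0.80 for Rbfox3, from -0.38 to 0.73 for Neurod1, from -0.32 to 0.35 for Neurod6, from -0.59 to 1.28 for Tbr1 and from -0.11 to 1.86 for Calb1. Estimates that kept their sign also moved, from 0.0060 to 1.92 for Slc17a7, from 0.31 to 2.47 for Camk2a and from 1.06 to 5.26 for Penk. With the longest transcript as length, which scales all libraries alike, the wild type and knockout mean ratios were 2.61 and 0.884 for Camk2b to Camk2a, 22.8 and 6.98 for Sv2a to Sv2b, and 1.35 and 0.625 for Syn1 to Syn2. WT 4 was the highest library in each and raised the wild type means. In WT 1, WT 3 and WT 4 the ratios were 0.649, 0.623 and 6.55 for Camk2b to Camk2a. They were 4.87, 16.5 and 47.0 for Sv2a to Sv2b, and 0.582, 1.16 and 2.31 for Syn1 to Syn2. No paired analysis was possible because the groups share no replicate number. Pvalb, Npy, Nefh, Sst, Calb2 and Penk had 3 or fewer counts in at least 1 library, where their levels are imprecise.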
